A study of Schizosaccharomyces pombe with 5 samples.

Results

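The genes of ergosterol synthesis, the sterol-sensing regulators Sre1 and Scp1 and a set of oxygen-responsive genes were followed in the fission yeast Schizosaccharomyces pombe. They were chosen by name, from a list of 31 gene symbols. On the array, erg20 was matched as a synonym of spo9, sts1 as a synonym of erg4, and erg3 as a synonym of erg31, which the list also held under its own name. The list therefore held 30 genes, and all 30 were measured on every array, among 4907 genes and unnamed probe pairs in all. In the reference assembly ASM294v3, 15 of them lie on chromosome I, 13 on chromosome II and 2 on chromosome III. The array's own build is not named, so no positions are given.

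Ergosterol is the main sterol of fungal membranes. Its synthesis starts with the mevalonate pathway, which makes farnesyl diphosphate, passes through squalene, and ends with a series of reactions that trim and reshape the sterol ring and side chain. Several of these reactions consume molecular oxygen and use haem or iron. In fission yeast the membrane-bound transcription factor Sre1, the counterpart of mammalian SREBP, is held with its partner Scp1 in the endoplasmic reticulum, and is cleaved and moves to the nucleus when sterols or oxygen run short.

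Expression was read in 2 colours on 5 spotted oligonucleotide arrays, from cells kept at 30 degrees. The arrays are named here by their labels. W1 and W2 are labelled as self-self hybridisations, wild type against wild type, and T1, T2 and T3 as the tra1-1 strain in Cy5 against wild type in Cy3. tra1 codes for the fission yeast version of TRRAP, the large scaffold subunit of SAGA, a histone acetyltransferase complex, and the kinase Wee1 is named in the series title. No other allele and no mating type is given for either strain, and neither is the change that tra1-1 makes in the gene or the number of isolates used. A gene's value is the mean log ratio of its 2 oligonucleotides, centred so that the probes of each array have a median of 0. Base and direction of the logarithm are unstated in the deposited table. The ratio is read as log2 of Cy5 to Cy3, which is likely, and every sign below would turn if it ran the other way. The submitters call the experiments independent, without naming separate cultures, so a p-value covers the spread between these arrays, which may be technical. The small number of arrays limits the precision. In a bulk culture, fewer cells of a kind and less RNA per cell cannot be told apart.

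Before any comparison, tra1 itself went against the labels. Its ratio was -1.41 on W1, -2.04 on W2, 0.04 on T1, 0.02 on T2 and -2.21 on T3, so T3 resembled the W arrays. Markers of mating M cells and of early sexual differentiation, 10 genes, were set up as separate lists and are pooled here. As a set they split in the same way. Their median ratio was 0.98 on W1, 1.29 on W2, 0.08 on T1, 0.12 on T2 and 0.94 on T3. The other markers did not split this way. The median ratio of P cell markers was 0.43 on W1, -0.05 on W2, 0.22 on T1, 0.09 on T2 and -0.22 on T3. That of meiosis and sporulation markers was -0.16, 0.29, -0.08, 0.13 and 0.15 on the same arrays. Over all 18 mating and meiosis markers the mean ratio was 0.65 on W1, 0.69 on W2, 0.06 on T1, 0.07 on T2 and 0.62 on T3. The part of these markers in the results below was not tested. The main results are therefore given with and without T3, and values are listed in the order W1, W2, T1, T2 and T3. T3 was singled out after its values were seen. Leaving out a T array that resembles the W arrays tends to widen the difference between the groups and narrow the spread. A test passed without T3 is therefore not independent evidence of a difference.

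No member reached 1 on the log2 scale on any array, and the most extreme value was 0.92, for erg1 on T3. The standard deviation over the 30 members was 0.38, 0.32, 0.30, 0.31 and 0.40 in the order of arrays, against 0.40, 0.39, 0.26, 0.30 and 0.45 over all genes. Members therefore spread about as widely as genes in general.

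**Figure D1:**
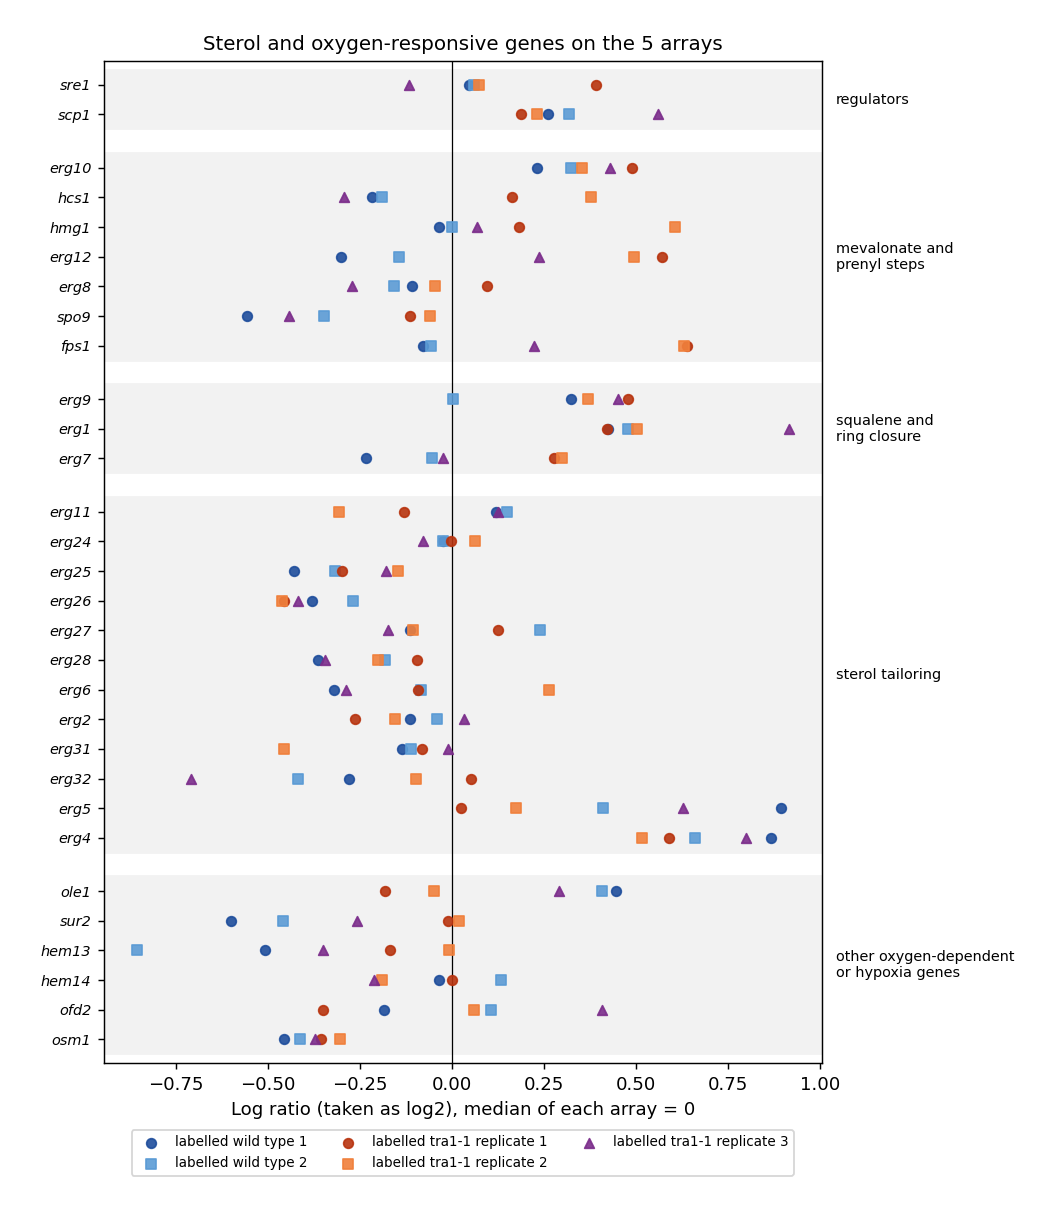
Log ratio of each of the 30 genes (rows, in pathway order) on each of the 5 arrays (points, by label), with the median of each array at 0 and shaded blocks for the groups of genes. fps1, erg12 and hmg1 have all 3 arrays labelled tra1-1 to the right of both arrays labelled wild type, while most sterol tailoring genes have mixed orders.

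The first comparison asked which of these transcripts differed between the arrays labelled tra1-1 and those labelled wild type. In limma over all 5 arrays, 0 of 30 members differed at an adjusted p under 0.05, as did 0 of all 4907 genes (0.0%), and the smallest adjusted p of a member was 0.625. An unadjusted p under 0.05 was reached by 5 members, 4 higher and 1 lower on the T arrays, against 349 of all genes (7.11%, of which 3.59% higher and 3.53% lower). The median difference of the members was 0.08, with 21 above 0 and 9 below, beside a median of 0.00 over all genes, of which 49.4% were above 0. The labelled groups did not overlap in 12 members, 10 higher and 2 lower on the T arrays, where 23.3% of all genes did not overlap (11.3% higher and 12.0% lower).

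The mevalonate and prenyl steps held the largest positive differences. All 7 members had differences above 0, with a median of 0.29 and a range from 0.06 to 0.66, and none passed the test over all 5 arrays. The median ratio of the 7 was -0.11 on W1, -0.14 on W2, 0.18 on T1, 0.38 on T2 and 0.07 on T3, so T3 lay between the other arrays. Without T3 the median difference was 0.41.

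erg12 (SPAC13G6.11C), which encodes mevalonate kinase, had ratios of -0.30, -0.14, 0.57, 0.50 and 0.24. All 3 T arrays were high, T3 least, and the groups did not overlap. Among all genes of an array its percentile was 16.8 on W1, 31.6 on W2, 97.6 on T1, 94.8 on T2 and 73.2 on T3. The means were -0.22 ± 0.11 (SD, n = 2) and 0.43 ± 0.18 (SD, n = 3), a difference of 0.66 with a standard error of 0.17 or 1.57-fold (limma adjusted p = 0.625, rank 16 of 4907 by p). Without T3, singled out after its values were seen, the difference was 0.75 ± 0.16 (SE), which passed the test (limma adjusted p = 0.00926). Its oligonucleotides pointed the same way when fitted apart, at 0.85 and 0.46.

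fps1 (SPAC6F12.13C) encodes farnesyl diphosphate synthase, the last enzyme before the pathway branches. It had ratios of -0.08, -0.06, 0.64, 0.63 and 0.22. The W pair was close together, at percentiles 38.8 and 42.1, T1 and T2 stood at percentiles 98.5 and 97.8, and T3 lay between, at 72.2. The difference was 0.57 ± 0.18 (SE), or 1.48-fold (limma adjusted p = 0.625, 95% interval 0.17 to 0.96). Without T3 it was 0.70 ± 0.16 (SE, limma adjusted p = 0.0131). With erg12, it was one of 2 members past the test in that fit, both higher, where 4.18% of all genes passed (2.47% higher and 1.71% lower). The oligonucleotides of fps1 differed by 0.72 and 0.41, so both were on the higher side.

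The other mevalonate genes had smaller differences. hmg1, the HMG-CoA reductase gene that controls flux into the pathway, had ratios of -0.03, -0.0005, 0.18, 0.61 and 0.07, and its difference of 0.30 became 0.14 without T2. hcs1, which encodes HMG-CoA synthase, had -0.22, -0.19, 0.16, 0.38 and -0.29. T3 was the lowest of all 5, the groups overlapped, and the difference of 0.29 ± 0.20 (SE) became 0.47 without it (limma adjusted p = 0.118) and 0.14 without T2. erg10, the acetoacetyl-CoA thiolase gene at the entry to the pathway, was above 0 on every array, from 0.23 to 0.49, and differed by 0.15. erg8, the phosphomevalonate kinase gene, differed by 0.06, and its oligonucleotides disagreed in level on both W arrays, at -0.55 and 0.34 on the first and -0.70 and 0.39 on the second. spo9, named for sporulation and matched from the farnesyl diphosphate synthase symbol erg20, was below 0 on every array (-0.56, -0.35, -0.11, -0.06 and -0.44). Its second oligonucleotide carried the low level, at -0.97 and -0.85 on the W arrays, where the first stood at -0.14 and 0.16.

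**Figure D2:**
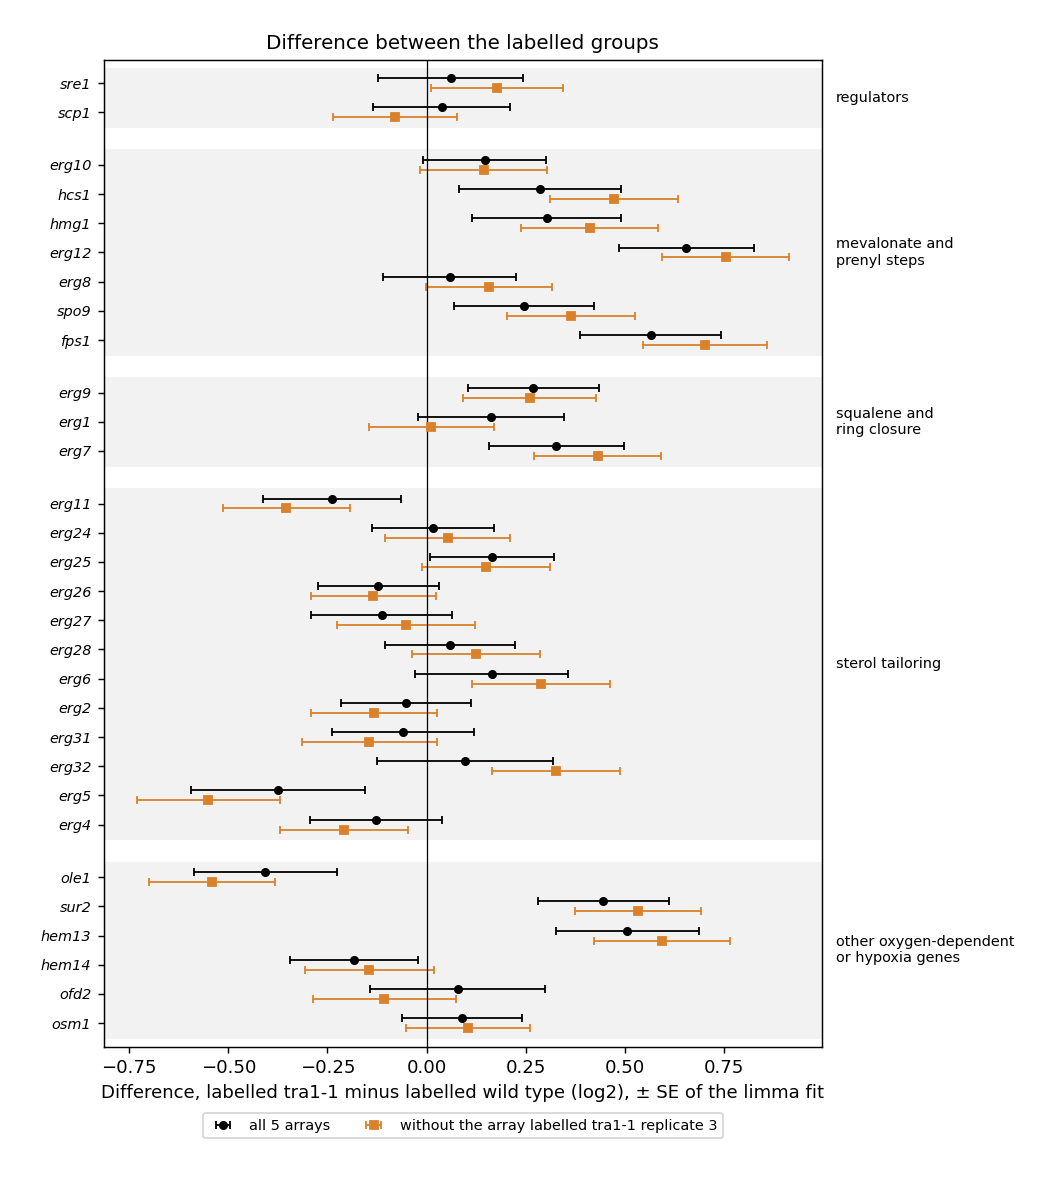
Difference, labelled tra1-1 minus labelled wild type, for each of the 30 genes (log2, points, with bars for the standard error of the limma fit), over all 5 arrays (black circles) and without the array labelled tra1-1 replicate 3 (orange squares). The mevalonate, prenyl and squalene genes lie above 0 in both fits, erg12 and fps1 highest, and the sterol tailoring genes lie on both sides.

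The squalene and ring closure genes also had differences above 0, with none past the test. erg9 encodes squalene synthase and had ratios of 0.33, 0.004, 0.48, 0.37 and 0.45. Only W2 was near 0, and the groups did not overlap (difference 0.27 ± 0.17, SE). The difference was 0.11 without W2 and 0.43 without W1. The first oligonucleotide of erg9 carried the difference, at 0.55, against -0.01 for the second. erg7, the lanosterol synthase gene, had -0.23, -0.05, 0.28, 0.30 and -0.02, with T3 just above the W pair, so the groups narrowly did not overlap. Its difference of 0.33 ± 0.17 (SE) came from the second oligonucleotide (0.66), while the first gave -0.0015. erg1, which encodes the oxygen-dependent squalene epoxidase, stood above 0 on every array, at 0.42, 0.48, 0.42, 0.50 and 0.92. T3 was far above the other 4, which lay close together, and without it the difference of 0.16 became 0.01.

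Sterol tailoring genes had differences on both sides of 0. Of 12 members, 5 had differences above 0 and 7 below, with a median of -0.06, a range from -0.38 to 0.16 and none past the test. Their median ratio was -0.13, -0.06, -0.09, -0.13 and -0.13 in the order of arrays, nearly the same on all 5. Without T3 the median difference was -0.09.

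Within this group, erg5 and erg11, the cytochrome P450 genes of sterol desaturation and demethylation, had the lowest differences over all 5 arrays. erg5 had ratios of 0.89, 0.41, 0.03, 0.18 and 0.63. It was high on both W arrays and on T3, low on the other pair, and the groups overlapped. The difference was -0.38 ± 0.22 (SE, limma adjusted p = 0.747), and -0.55 without T3 (limma adjusted p = 0.103). It was -0.13 without W1 and -0.62 without W2, and without W1 erg27 (-0.29), erg11 (-0.25) and erg26 (-0.18) were lower. The first oligonucleotide of erg5 gave -0.64 and the second -0.11. erg11, the target of azole antifungals, had 0.12, 0.15, -0.13, -0.31 and 0.13, again with the W arrays and T3 above T1 and T2. Its difference was -0.24 ± 0.17 (SE), or -0.35 without T3 and -0.14 without T2.

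Between the desaturase paralogs erg31 and erg32, which both act on the sterol ring, the arrays were ordered differently. erg32 had ratios of -0.28, -0.42, 0.05, -0.10 and -0.71, lowest on T3. erg31 had -0.14, -0.11, -0.08, -0.46 and -0.01, lowest on T2. Their differences were 0.10 ± 0.22 and -0.06 ± 0.18 (SE). Whether the probes tell the paralogs apart was not checked, and the difference between the paralogs was not tested.

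The remaining tailoring genes had differences that ran, rounded, from -0.13 to 0.16. The sterol methyltransferase gene erg6 (0.16, and 0.01 without T2), the methyl oxidase gene erg25 (0.16), the scaffold gene erg28 (0.06) and the reductase gene erg24 (0.02) were on the higher side. The sterol isomerase gene erg2 (-0.05), the keto-reductase gene erg27 (-0.11), the dehydrogenase gene erg26 (-0.12) and erg4, the gene for the last reductase of the pathway (-0.13), were on the lower side. erg24 was the flattest of all, between -0.08 and 0.06 on the 5 arrays. The 95% interval of its difference ran from -0.32 to 0.36, and values in that range could not be told from 0 with these arrays. The oligonucleotides of erg26 had opposite signs: the first differed by 0.23 and the second by -0.48, the second lying between -0.65 and -0.70 on every T array.

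Both regulators had differences near 0. sre1 had ratios of 0.05, 0.06, 0.39, 0.07 and -0.12, and scp1 had 0.26, 0.32, 0.19, 0.23 and 0.56. For sre1 T1 stood above the rest, and for scp1 T3 did. The differences were 0.06 ± 0.18 and 0.04 ± 0.17 (SE), with 95% intervals from -0.34 to 0.47 and -0.34 to 0.42. Sre1 is controlled by cleavage, which these arrays do not measure.

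Among the 6 other oxygen-dependent or hypoxia genes, 3 had an unadjusted p under 0.05, in both directions, where 7.11% of all genes did. hem13 (SPAC222.11) encodes coproporphyrinogen oxidase, an oxygen-using enzyme of haem synthesis, and had ratios of -0.51, -0.86, -0.17, -0.01 and -0.35. Both W arrays were the lowest, T3 came next, and the groups did not overlap. The difference was 0.51 ± 0.18 (SE, limma adjusted p = 0.666), or 1.42-fold, and 0.59 without T3 (limma adjusted p = 0.0607). Without W2 it was 0.33. The 2 oligonucleotides of hem13 differed in level on every array and gave differences of 0.58 and 0.43.

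sur2 (SPBC887.15C), which encodes a hydroxylase of sphingolipid bases, had ratios of -0.60, -0.46, -0.01, 0.02 and -0.26. It was low on the W pair, near 0 on T1 and T2, and between them on T3. The difference was 0.45 ± 0.17 (SE, limma adjusted p = 0.685), with 0.47 and 0.42 from its oligonucleotides, and 0.53 without T3 (limma adjusted p = 0.0708).

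ole1 (SPCC1281.06C), the fatty acid desaturase gene, ran the other way. Its ratios were 0.45, 0.41, -0.18, -0.05 and 0.29, with the W pair highest and T3 nearer to them than to T1 and T2. The difference was -0.41 ± 0.18 (SE, limma adjusted p = 0.689), with -0.47 and -0.34 from its oligonucleotides, and -0.54 without T3 (limma adjusted p = 0.0652). hem14, the protoporphyrinogen oxidase gene, differed by -0.18, and osm1, named for a fumarate reductase of budding yeast, by 0.09. ofd2, a dioxygenase gene, ranged from -0.35 to 0.41 within the T arrays alone and differed by 0.08 ± 0.22 (SE).

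**Figure D3:**
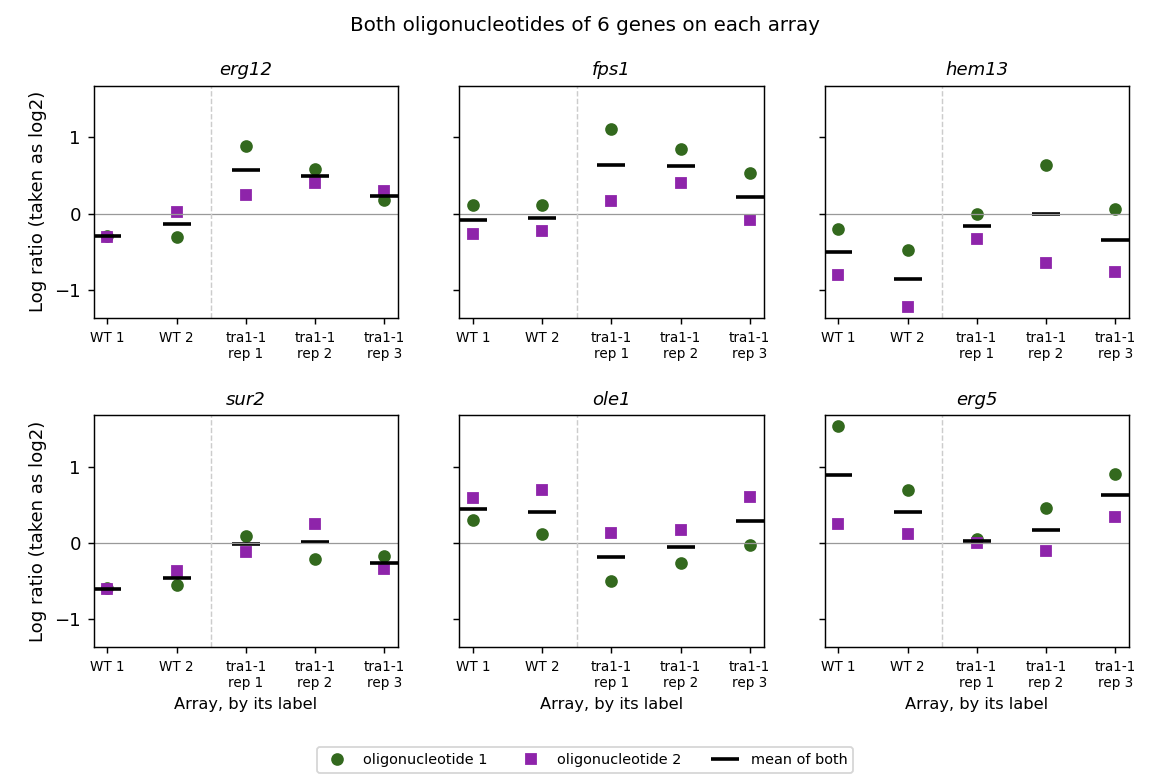
Log ratio of each of the 2 oligonucleotides (green circles and purple squares) and their mean (black bars) on each array, by its label (WT, wild type; rep, replicate), for the 5 members with an unadjusted p under 0.05 and erg5, chosen after their values were seen. Both oligonucleotides of erg12, fps1, hem13 and sur2 are higher and both of ole1 and erg5 lower on average on the arrays labelled tra1-1, although the 2 of hem13 and of erg5 stand at different levels.

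The 2 oligonucleotides of a gene often differed. Across all genes their ratios correlated at 0.41 on W1, 0.41 on W2, 0.13 on T1, 0.12 on T2 and 0.39 on T3. Their differences between the labelled groups had the same sign in 18 of 30 members, both higher in 12 and both lower in 6, and opposite signs in 12. The median gap between a member's oligonucleotides on an array was 0.27, 0.41, 0.32, 0.37 and 0.29 in the order of arrays. Over all genes it was 0.32, 0.32, 0.31, 0.35 and 0.40. No single oligonucleotide of a member passed the test when all probes were fitted apart (limma adjusted p = 0.576 for the lowest, the first of erg12).

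T3 was nearer to the mean of the W pair than to the mean of T1 and T2 in 19 of 30 members (63.3%). Over all genes this was so in 58.7%. Across all genes, T3 correlated at 0.72 with W1 and 0.74 with W2, but at 0.47 with both T1 and T2. Across the members, these values were 0.82 and 0.80 with the W arrays, and 0.51 and 0.56 with T1 and T2.

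Genes around the pathway were chosen for their roles, with earlier results of these data known. No difference was called in any list, where 0 of all 4907 genes (0.0%) were called. Of the 12 genes that activate or degrade Sre1, 5 had differences above 0 and 7 below, with a median of -0.05. The lowest was ubc4, a ubiquitin-conjugating enzyme gene (-0.60), which was -0.67 without T3, -0.24 without W1 and -0.96 without W2, and the highest was the segregase gene cdc48 (0.38). The other isoprenoid branches, with 12 genes, had a median of 0.07 and 8 genes above 0. Its highest were idi1, the isopentenyl diphosphate isomerase gene, and mvd1, the diphosphomevalonate decarboxylase gene, both enzymes of the path to farnesyl diphosphate and both at 0.30. Without T3 they were 0.44 and 0.48, and leaving out another array gave at least 0.21 for idi1 and 0.16 for mvd1. mvd1 had ratios of -0.07, -0.32, 0.36, 0.21 and -0.27 and idi1 -0.15, -0.35, 0.17, 0.23 and -0.22, each with T3 among the W arrays. Heme synthesis, with 8 genes, had a median of -0.07. Its extremes were hem1, the aminolevulinate synthase gene that starts the pathway (0.51 ± 0.17, SE), and cox10, the haem farnesyltransferase gene (-0.41 ± 0.19, SE, and -0.26 without T3).

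Electron carriers of the P450 and desaturase reactions, 4 genes, had a median of -0.06, with ccr1, the P450 reductase gene, at -0.25 (0.63 on W1 alone against -0.13 on W2, and a difference of 0.13 without W1), and dap1, a haem-binding partner of P450 enzymes, at 0.23. In the list of sterol esterification and transport, 7 genes had a median of -0.04, and are2, a sterol acyltransferase gene, was highest at 0.38, with npc2 at -0.18. Fatty acid and sphingolipid synthesis, with 15 genes, had a median of 0.00 and lay between -0.30 (the ceramide synthase gene lac1) and 0.21, with the hydroxylase gene scs7 at -0.27. The 2 groups of early pathway steps had higher medians than any of these 6, a comparison that was not tested. It depends on how the lists were divided, since idi1 and mvd1, also enzymes of the early path, were counted among the isoprenoid branches.

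**Figure D4:**
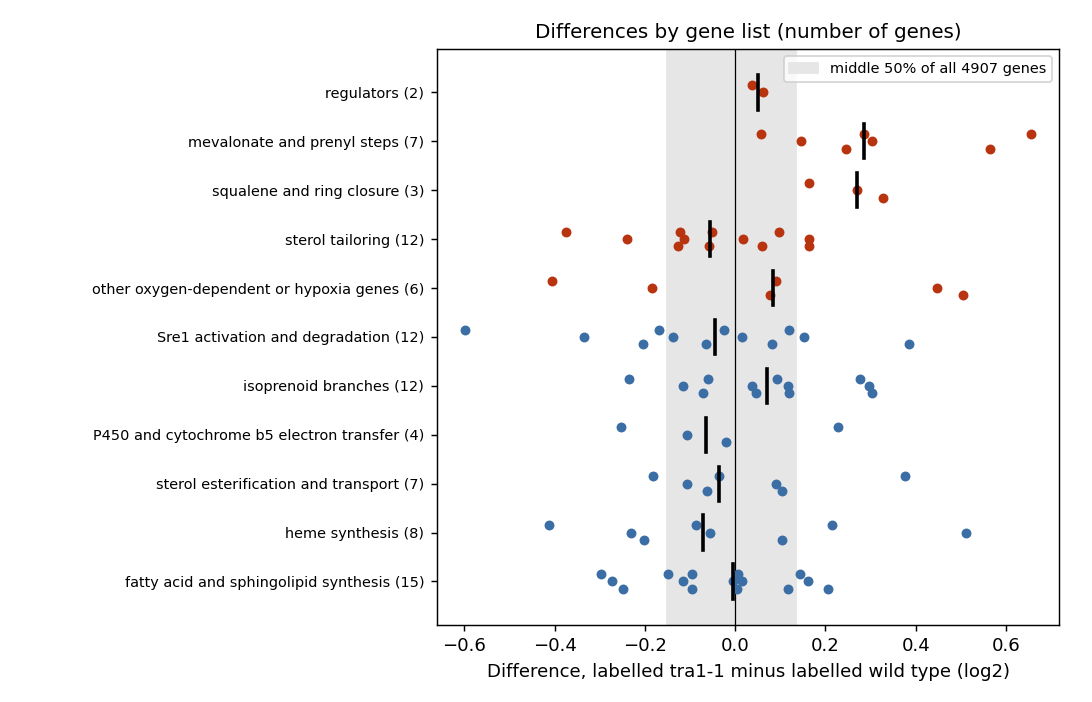
Difference, labelled tra1-1 minus labelled wild type (log2, 1 point per gene) in the 5 groups of members (red) and in 6 lists of related genes (blue), with the median of each list as a black bar, the number of genes in parentheses and the middle 50% of all 4907 genes shaded. The medians of the mevalonate and prenyl steps (0.29) and of squalene and ring closure (0.27) lie to the right of the shaded range, and all other medians lie inside it.

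The markers of mating M cells and early differentiation, measured in the same fit, had a larger median difference than any sterol gene group. All 10 were below 0 in the difference, with a median of -0.81 and a range from -1.24 to -0.015. The labelled groups did not overlap in 5 of the 10, all lower, where 12.0% of all genes were lower without overlap. Among the 10 were rgs1 (-1.24), ste4 (-1.04), mfm2 (-0.99), mam2 (-0.87), mei2 (-0.75) and mam1 (-0.57). P cell markers had a median of -0.10, with map3 at -0.31 and map2 at 0.19, and those of meiosis and sporulation 0.02, with spo5 at -0.37 and spn5 at 0.25. Without T3, 7 of the 18 passed limma's test, all lower (those named first and ste11, at -1.57), in the same fit in which erg12 and fps1 passed it.

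The second comparison set the ratios on the W arrays against 0, which for a true self-self array would give the background of dye and spot effects. On these arrays, however, tra1 was below 0, and 7 of the 18 mating and meiosis markers passed limma's test above 0. W1 and W2 correlated at 0.75 over all genes. What the ratios on the W arrays reflect was not tested. Of 30 members, 5 passed limma's test, 2 above and 3 below 0, where 11.4% of all genes did (6.4% above and 4.99% below). erg4 stood at 0.76 ± 0.15 (SD, n = 2, limma adjusted p = 0.00926) and erg5 at 0.65 ± 0.34 (SD, n = 2, limma adjusted p = 0.0359). hem13 was at -0.68 ± 0.25 (limma adjusted p = 0.0154), sur2 at -0.53 ± 0.10 (limma adjusted p = 0.0286) and osm1 at -0.43 ± 0.03 (SD, n = 2, limma adjusted p = 0.0415). The differences of hem13, sur2 and erg5 between the groups went with mean ratios away from 0 on the W arrays and nearer to 0 on the T arrays. The same held for ole1, with means of 0.43 on the W arrays, not past the test, and 0.02 on the T arrays. In erg12 and fps1 the W ratios were -0.22 and -0.07, neither past the test. Of the genes around the pathway, sre2, an Sre1 paralog (0.46), and the cytochrome b5 gene oca8 (0.51) were above 0, and the rhomboid protease gene rbd2, which takes part in Sre1 cleavage (-0.51), and nus1, of dolichol synthesis (-0.61), below.

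Leaving out W1 or W2, with the lone array assumed to vary like the others, left 0 members and 0 genes past this test. Without T3, which enters this fit through the shared estimate of spread, 11 members passed, 4 above and 7 below 0, where 27.9% of all genes did. Those added were erg1 (0.45) and ole1 (0.43) above, and spo9 (-0.45), erg25 (-0.37), erg32 (-0.35) and erg26 (-0.32) below. erg5 rested on its first oligonucleotide, at 1.12 on the W arrays against 0.18 for the second. hem13 rested more on its second, at -1.02 against -0.34.

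The third comparison set the 3 T arrays against 0. If the labels hold, this reads mutant over wild type directly but keeps any dye effect. The ratios of tra1 went against the labels, and whether the labels hold was not tested. Of 30 members, 6 passed limma's test, 5 above and 1 below 0, where 7.83% of all genes did (5.6% above and 2.22% below). Above 0 were erg4 (0.64 ± 0.15, SD, n = 3, limma adjusted p = 0.0239), erg1 (0.61 ± 0.27, SD, n = 3, limma adjusted p = 0.0357), fps1 (0.50), erg9 (0.43) and erg10 (0.42). erg26 was below, at -0.44 ± 0.02 (SD, n = 3, limma adjusted p = 0.0427). When the oligonucleotides were fitted apart, both of erg4 passed (0.68 and 0.59). Only 1 passed in fps1 (0.83, against 0.16), erg9 (0.645, against 0.22) and erg10 (0.68, against 0.17). The same held for erg1 (0.83, against 0.40) and erg26 (-0.67, against -0.22). erg12 stood at 0.43 ± 0.18 (SD, n = 3) and did not pass (limma adjusted p = 0.0573). Outside the members, are2 (0.77, limma adjusted p = 0.017) and the fatty acid elongase gene elo2 (0.72) passed above 0, and rbd2 (-0.57) below, as on the W arrays.

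Most members past this test lay on the same side of 0 on the W arrays. erg4 lay between percentiles 95.4 and 98.1 of all genes on each of the 5 arrays, at 0.87, 0.66, 0.59, 0.52 and 0.80, and its difference between the groups was -0.13. erg1 and erg10 were likewise above 0 on all 5 arrays, and erg26 and osm1 below 0 on all 5. In all, 13 members kept 1 side of 0 on all 5 arrays, where 37.5% of all genes did. Of these, 6 were above 0 (scp1, erg10, erg9, erg1, erg5 and erg4, against 20.4% of all genes) and 7 below (spo9, erg25, erg26, erg28, erg31, hem13 and osm1, against 17.1%). fps1 was the exception among the 6 that passed: it stood below 0 on both W arrays and above 0 on all 3 T arrays.

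These calls rested on the arrays used: without T1 only erg1 passed (1 member and 140 genes), and without T2 none did (0 members and 65 genes). Without T3, 9 members passed, 7 above and 2 below 0, where 22.4% of all genes did. The 3 added were erg12 at 0.53 (limma adjusted p = 0.000263), hmg1 at 0.39 (limma adjusted p = 0.00853) and osm1 at -0.33 (limma adjusted p = 0.029), and fps1 was at 0.63 (limma adjusted p = 1.17e-05).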

How the data were processed

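The deposited values are 1 log ratio per probe and array on 9858 probes, taken as log2. Per the labels' protocols, about 30 ug of total RNA gave cDNA, of which about 1.5 ug was coupled to each dye, with no dye swap. How spots were scanned, background-corrected or normalized is not stated in the sources used here; channel intensities were not analysed here. The deposited medians of the arrays lay between -0.43 and -0.21, and each array was centred on its median over probes.

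Probes were named through the platform annotation: 9632 had 1 gene symbol, 44 several, and 182 were not listed. Oligonucleotides of a gene were averaged, and 22 of 4929 genes or unnamed pairs without a value on some array were left out. limma 3.58.1 in R 4.3.3 (lmFit and eBayes, 2-sided, Benjamini-Hochberg adjustment over all 4907, threshold 0.05) fitted the difference and the wild-type-labelled ratio over all 5 arrays, and the tra1-1-labelled ratio over its 3 arrays. The fit was tested on simulated data.

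The members and lists were chosen with earlier results of these data known. Of the related lists every gene past a test and the 2 with the largest absolute difference are named; of 80 such names, ncr1, tsc10 and isc1 matched no gene, and mcr1 was dropped, once the annotation was in hand, because it matched another gene's synonym. Promoter motifs were not searched, for want of sequences. Alternatives were a replicate block, values as deposited, quantile normalization, genes with both oligonucleotides measured, each oligonucleotide alone and leaving out each array. The block was not run for the tra1-1-labelled ratio or the wild-type-labelled ratio. Each oligonucleotide alone was fitted for the tra1-1-labelled ratio, but those fits are not in the count of recomputed values below. For single members' ratios against 0, the deposited values, quantile normalization, the filter on oligonucleotides and leaving out arrays were added after seeing the data. Plots used matplotlib 3.10.9 (Python 3.11.15).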

Additional observations from a re-analysis of the deposited data

How the results depend on the processing

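Of the 416 values of single members recomputed under an alternative, 346 kept their direction and their side of the threshold, 8 newly passed the test, 34 no longer passed it and 28 changed sign. Replicate numbers are shared between the labels, and deviations of same-numbered arrays correlated at 0.04 and -0.03. The deviations of the 2 arrays labelled wild type mirror each other, so this cannot show whether same-numbered arrays share a culture or day. A replicate block, to which tra1-1 replicate 3 gives no information on the difference, called 329 of 4907 genes and 6 of 30 members. Of these members erg12, fps1, hem13 and sur2 were higher, and ole1 and erg5 lower. With the block the median of the members was 0.13, and it gave scp1 -0.0795 and ofd2 -0.11. Leaving out 1 array at a time gave 0 to 205 genes, 0 to 2 members and medians of 0.0613 to 0.13 for the difference, the highest without tra1-1 replicate 3. It gave 0 to 1367 genes and 0 to 11 members for the wild-type-labelled ratio, the 0 with a lone array assumed to vary like the others, and 65 to 1100 genes and 0 to 9 members for the tra1-1-labelled ratio, the lowest without tra1-1 replicate 2. Values as deposited called 1561 genes and 14 members (median -0.38) against 0 on the arrays labelled wild type, and 2613 genes and 16 members (median -0.38) on those labelled tra1-1, the array medians then lying below 0; scp1 differed by -0.0077 and erg24 by -0.0281. Quantile normalization called 585 genes for the tra1-1-labelled ratio. One oligonucleotide alone turned the difference of scp1 (-0.0285), erg8 (-0.13), erg9 (-0.014), erg7 (-0.0015), erg24 (-0.0032), erg25 (-0.022), erg26 (0.23), erg27 (0.0737), erg28 (-0.14), erg31 (0.0638), erg32 (-0.0697) and ofd2 (-0.0875). Differences changed sign when an array was left out in sre1 (-0.0762 to 0.18), scp1 (-0.0795 to 0.11), erg8 (-0.0273 to 0.16), erg24 (-0.017 to 0.0537), erg27 (-0.29 to 0.0637), erg28 (-0.0322 to 0.15), erg2 (-0.13 to 0.0153), erg31 (-0.14 to 0.078), erg32 (-0.0547 to 0.33) and ofd2 (-0.11 to 0.27). The cause of these changes was not tested. erg12 kept differences of 0.58 to 0.75 and fps1 of 0.50 to 0.70, past the test only without tra1-1 replicate 3 and with the block among these alternatives.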
